A study of Danio rerio with 13 samples.

Results

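Of the neuregulin, other EGF-family ligand and ErbB receptor genes of the zebrafish, 8 were described through 2 histone marks at their promoters. They are nrg1, nrg2a, nrg2b and hbegfa, which encode ligands of the EGF family, and erbb2, erbb3a, erbb3b and egfra, which encode receptors. All promoter windows that carried one of these symbols in the deposited tables were taken, which gave 26 of 42037 windows and 8 of 24438 gene IDs. Windows of a gene that overlap were treated as 1 position, and the 26 windows then came to 19 positions.

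Neuregulins are ligands that bind ErbB3 or ErbB4 on the cell surface, and the bound receptor then pairs with ErbB2, which has no ligand of its own and supplies kinase activity. Cardiomyocytes answer this signal by dividing or growing, and in zebrafish hearts Nrg1 acting through Erbb2 is known as a mitogen for cardiomyocytes after injury. The ligand gene nrg2a and the receptor gene erbb2 are also known in zebrafish for their part in the trabeculation of the embryonic ventricle.

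Resected hearts, from which the apex of the ventricle had been cut 5 days earlier, were set against uninjured hearts, with 3 chromatin immunoprecipitation and sequencing (ChIP-seq) libraries per condition for each mark. The fish were of the strain TuAB and 1 to 1.5 years old, with no transgene named in the labels. The cells came from the apical part of the ventricle and were enriched for cardiomyocytes by their retention on a mesh. The mark H3K4me3 (histone H3 trimethylated at lysine 4) is found at active promoters, whereas H3K27me3 (the same histone trimethylated at lysine 27) is the product of Polycomb proteins and is found at silenced ones. The series calls its libraries biological replicates, 12 in all beside 1 mixed input DNA sample that is not used here.

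The values are the authors' comparison of the conditions, 1 table per mark, with no value per library. Levels are therefore the authors' mean normalised counts over resected and uninjured libraries together, with no SD, and the spread between the 3 libraries of a group enters only through the standard error (SE) of each log2 fold change. All 26 windows are 4 kb wide, so levels can be compared between genes without a length correction. The tables assign each window to a gene and strand, and which exons or introns it covers was not analysed here. The median over all 42037 windows was 82.9 for H3K4me3 and 56.1 for H3K27me3. How deeply each library was sequenced is not stated in the labels or tables. The 15 cardiomyocyte markers had a median H3K4me3 mean of 167 (range 46.5 to 237), above the median of 94.0 over all genes at their window of highest mean. Markers of other cell types carried H3K4me3 as well, with medians of 251 at endocardial and endothelial, 132 at epicardial and 104 at leukocyte markers. The marker lists were chosen with earlier results of these data known, so the shares called among them only describe the data. Among markers with an adjusted p, H3K4me3 fell at 10 of 13 cardiomyocyte and 3 of 12 endocardial and endothelial markers, against 1.4% of all genes. It rose at 7 of 9 leukocyte, 4 of 7 epicardial and 4 of 9 erythroid markers, against 1.52% of all genes, and 1 of 8 fibroblast and perivascular markers rose and 1 fell. In such a mixture, fewer cells of a type and less of a mark per cell cannot be told apart.

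By their H3K4me3 level the 8 genes fell into 2 groups, split at the widest gap, on a log scale, among these same 26 window means. In 4 of them, hbegfa, erbb2, nrg2a and egfra, 1 position carried high H3K4me3, with authors' means from 214 to 328. At every other position, including all those of nrg1, nrg2b, erbb3a and erbb3b, the mean lay between 24.6 and 58.1. No window of the 8 genes lay between 58.1 and 214, a range that holds 26.0% of all windows. The 7 windows above that gap were at percentiles 69.9 to 85.0 of all windows, and the 19 below it at percentiles 3.31 to 43.9. H3K27me3 differed less: its authors' means ran from 38.0 to 96.2, and 20 of the 26 windows lay above the median of all windows.

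**Figure D1:**
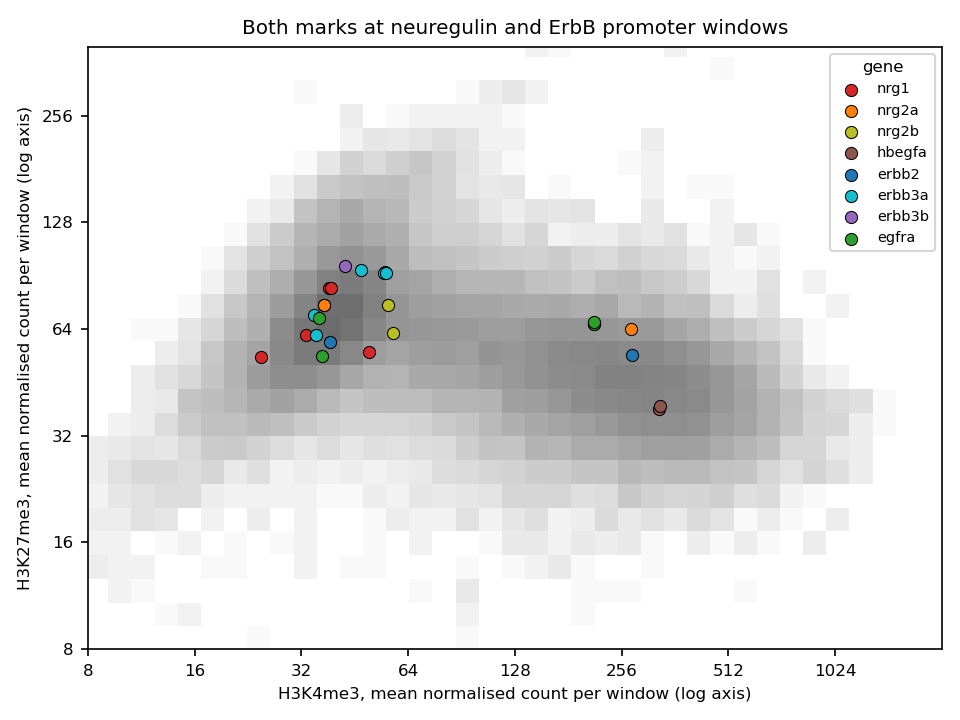
Each point is 1 promoter window of a neuregulin or ErbB gene, placed by the authors' mean normalised count of H3K4me3 (horizontal, log axis) and of H3K27me3 (vertical, log axis) over all libraries compared. Grey squares hold windows with a mean of at least 5 for both marks that lie within the axes, darker where there are more. The windows of hbegfa, nrg2a, erbb2 and egfra with 214 to 328 counts of H3K4me3 stand apart on the right from the 19 windows at 24.6 to 58.1.

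Among the ligand genes, nrg1 had low H3K4me3 at each of its 4 positions. The most upstream position, on the minus strand of chromosome 10, has a pair of windows 36 bases apart, at chr10:7511660-7515659 and chr10:7511624-7515623. Coordinates are in the build of the deposited tables, and the labels name several builds without saying which that is. These had 38.3 and 38.9 counts of H3K4me3 and 83.5 and 83.8 of H3K27me3, the highest H3K27me3 of the gene, at percentiles 88.3 and 88.5 of all windows. The next position, 85.9 kb downstream, had 49.7 counts of H3K4me3 and 55.2 of H3K27me3. The positions 120 kb and 125 kb downstream had 24.6 and 33.0 counts of H3K4me3 and 53.4 and 61.5 of H3K27me3. The largest H3K4me3 mean of nrg1 was thus 2.02 times its smallest, with no position above the median of all windows.

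The paralogues nrg2a and nrg2b, which encode neuregulins of a second type, differed from each other in H3K4me3. In nrg2a the upstream windows, 1 base apart on chromosome 21, had 37.1 counts each, while the downstream window at chr21:28627371-28631370 (minus strand), 71.3 kb away, had 272. The downstream promoter thus carried 7.32 times the H3K4me3 of the upstream one, and the authors' means of H3K27me3 were 63.8 there and 74.9 and 74.8 upstream. In nrg2b both windows were low, with 58.1 counts at the first, chr14:7967002-7971001 on the plus strand, and 56.2 at the second, 68.4 kb downstream. Their H3K27me3 means were 62.2 and 74.7. The first nrg2b window shares 571 bases with a window of purab, whose own H3K4me3 mean was 424, and reads in the shared stretch cannot be assigned to one gene.

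The gene hbegfa encodes heparin-binding EGF-like growth factor, a ligand of the EGF receptor and ErbB4. Its windows, at chr14:6740204-6744203 and 75 bases further on the plus strand, had the highest H3K4me3 of the 8 genes, with 326 and 328 counts at percentiles 84.9 and 85.0. They also had the lowest H3K27me3, with 38.0 and 38.9 counts at percentiles 15.0 and 16.5. Windows of the neighbouring gene rufy1 lie so near that the 2 genes share up to 79 bases.

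Among the receptor genes, erbb2 and egfra had an upstream promoter that was strong beside their own downstream windows. Over all windows these promoters were at percentiles 78.5 and 69.9 of H3K4me3, and the highest mean among all genes was 1511. The upstream erbb2 window, at chr12:9398385-9402384 on the minus strand, had 274 counts of H3K4me3 and 54.0 of H3K27me3. The erbb2 window 74.4 kb downstream had 38.6 and 58.7, so that the upstream one carried 7.10 times its H3K4me3. In egfra, which encodes an EGF receptor, the 3 upstream windows, the first at chr2:3862860-3866859 on the plus strand, lie within 88 bases of each other and each had 214 counts of H3K4me3. The egfra windows 78.7 kb and 113 kb downstream had 35.7 and 36.7. H3K27me3 at the 5 egfra windows ran from 53.7 to 68.8.

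The genes of ErbB3, the neuregulin-binding receptor with a weak kinase, had low H3K4me3 and the highest H3K27me3 of the family. The 3 upstream windows of erbb3a, within 70 bases of each other and the first at chr6:7307035-7311034 on the plus strand, had 54.8 to 55.4 counts of H3K4me3 and 92.0 to 92.7 of H3K27me3. The erbb3a window 24.0 kb downstream had 47.2 and 94.1, and those 33.9 kb and 41.2 kb downstream had 35.2 and 34.8 counts of H3K4me3 with 61.5 and 69.9 of H3K27me3. The only window of erbb3b, at chr23:25303871-25307870 on the plus strand, had 42.4 counts of H3K4me3 and 96.2 of H3K27me3. By H3K27me3 the first 4 erbb3a windows were at percentiles 92.5 to 93.3 of all windows and erbb3b at 93.9. In counts they lay far below the top of the range. The median over all windows was 56.1, and the highest mean among all genes, each at its window of highest mean, was 2712.

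**Figure D2:**
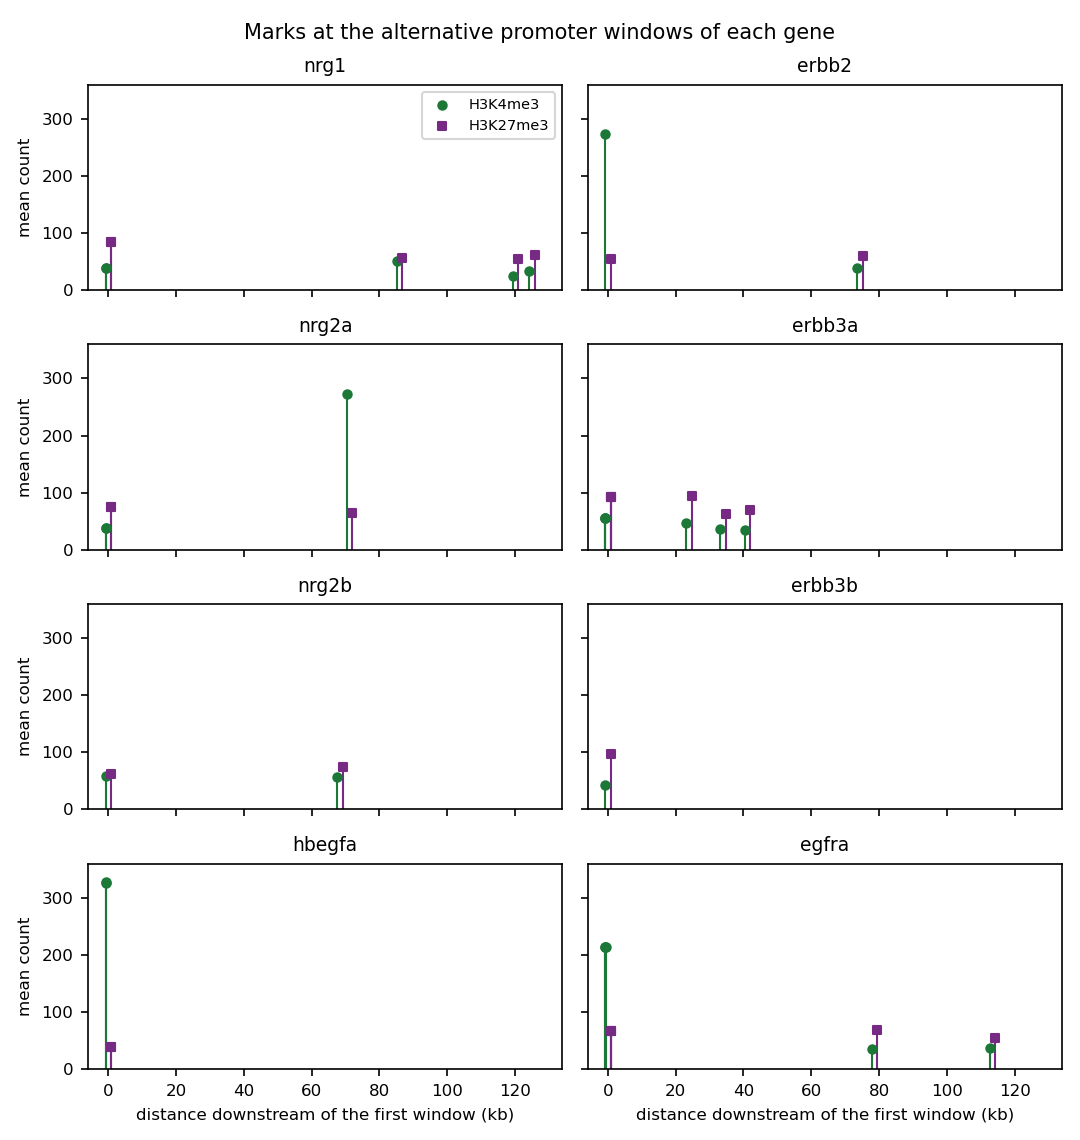
For each gene, the authors' mean normalised count of H3K4me3 (green circles) and H3K27me3 (purple squares) is drawn at each promoter window, against the distance in kb downstream of the gene's most upstream window, with the marks offset slightly sideways. High H3K4me3 stands at 1 position each of nrg2a (272), hbegfa (328), erbb2 (274) and egfra (214), and at none of nrg1, nrg2b, erbb3a and erbb3b.

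After resection, no H3K4me3 change passed the test at these genes: 0 of the 12 windows with an adjusted p from the authors' DESeq2 test had one under 0.05. Among these 12, the 3 of egfra, the 3 of erbb3a and the 2 of hbegfa each overlap almost entirely, so the windows are not independent measurements. The background, over all 24913 windows with an adjusted p, was 3.04% called. The authors gave no adjusted p below a mean of 51.8, which leaves out 14 of the 26 windows, among them all 5 of nrg1 and the only one of erbb3b. At an unadjusted p under 0.05 there was 1 window of 26, against 8.47% of all 42037 windows. Called windows began at a Wald statistic, the log2 fold change divided by its SE, of 3.18 in size. At the SE of the 12 windows this corresponds to a deposited log2 fold change of 0.75 to 0.92 in size, and smaller deposited values could not have been called. The deposited H3K4me3 values bear the signs of shrinkage towards 0. With that undone the SE at these windows was 0.288 to 0.449, so the change needed for a call was larger on that scale.

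That 1 window was the strong promoter of erbb2, the receptor that neuregulin signalling depends on. The authors' deposited table gives it a log2 fold change of -0.68 (SE 0.24, resected over uninjured), which is 0.624 of the uninjured level with a 95% interval of 0.449 to 0.866. The unadjusted p was 0.00481 and the adjusted p 0.110 in the authors' deposited table, so the change did not pass. A p this small or smaller was found at 2.81% of all windows. The H3K4me3 fold changes in the table bear the signs of shrinkage towards 0, and with that undone the value at this window was -0.85 (SE 0.30), or 0.554 of the uninjured level. The weak erbb2 window downstream had a log2 fold change of 0.43 (SE 0.30, unadjusted p = 0.145) in the authors' deposited table, on the other side of 0. The nearest window of another gene, that of pgap3 at 30.4 kb, had 0.07 in the authors' deposited table.

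The cardiomyocyte markers lay mostly below 0 as well. Their median log2 fold change of H3K4me3 was -1.13 (range -1.53 to 0.23), with 14 of 15 below 0, and for the endocardial and endothelial markers it was -0.48, with 10 of 12 below 0. Over all genes the median was 0.01. Their part in the erbb2 value was not tested.

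At the other strong promoters the values were near 0. For hbegfa the log2 fold change in the authors' deposited table was -0.05 at both windows (SE 0.23, adjusted p = 0.994 and 0.991), and the interval at the first reaches from 0.704 to 1.33 of the uninjured level. The strong nrg2a promoter had -0.18 (SE 0.24, adjusted p = 0.939), from the authors' deposited table. The 3 upstream egfra windows, which share most of their bases and so are 1 measurement, had 0.21 to 0.22 (SE 0.24, adjusted p from 0.902 to 0.915) in the authors' deposited table.

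The mitogen gene nrg1 had no H3K4me3 value whose 95% interval left out 0. The authors' deposited table gives -0.23 and -0.19 at the upstream pair of windows (unadjusted p = 0.432 and 0.514). Further downstream it gives 0.39, -0.41 and 0.21 (unadjusted p = 0.175, 0.165 and 0.485 in the authors' deposited table), with an SE of 0.29 to 0.30 throughout. The positions thus stood on both sides of 0, and the 95% interval at the strongest of them, 85.9 kb downstream, was 0.885 to 1.95 of the uninjured level. With the shrinkage undone the log2 fold change there was 0.63 (SE 0.46). At the window 120 kb downstream it was -1.02 (SE 0.73), the largest in size of the 26 windows. The SE allows 2 such values, and the larger was taken at this window because its mean, 24.6, lay below 33.9. Its rank among the 26 windows rests on that choice.

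The low promoters of the other genes gave like results. For nrg2b the authors' deposited table lists 0.29 and 0.08 (SE 0.29, adjusted p = 0.880 and 0.987). For erbb3a it lists 0.22 to 0.23 at the upstream windows (adjusted p from 0.928 to 0.941 in the authors' deposited table) and -0.22, 0.38 and 0.28 further downstream, where no adjusted p was given. The erbb3b window had -0.13 (SE 0.30, unadjusted p = 0.659) in the authors' deposited table. Apart from the strong erbb2 promoter, every H3K4me3 value among the 26 windows lay between -0.41 and 0.43, with unadjusted p-values of 0.145 or more. With the shrinkage undone these values lay between -1.02 and 0.73, and the strong erbb2 promoter, at -0.85, was not the largest in size. The -1.02, at the nrg1 window 120 kb downstream, rests on the larger of 2 values that its SE allows. Whether the erbb2 value is the largest thus depends on that choice.

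**Figure D3:**
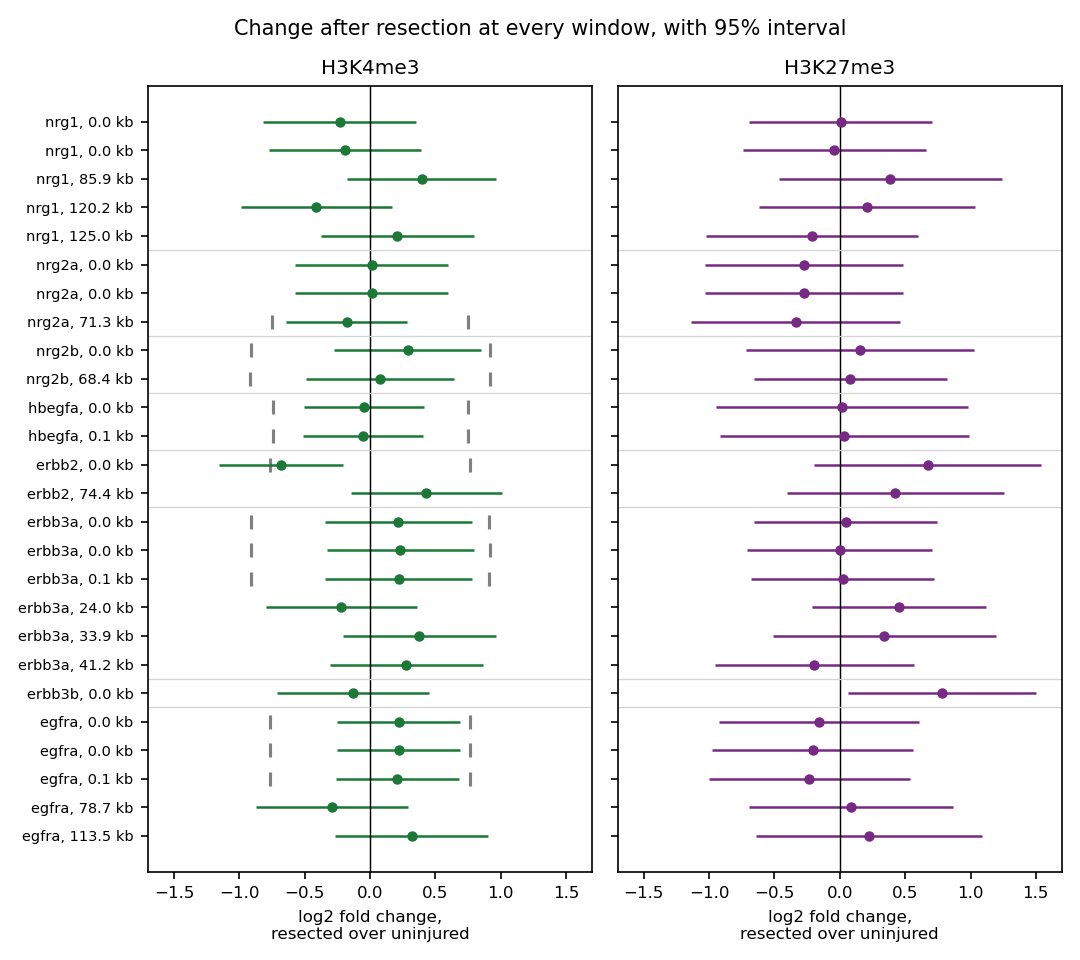
Log2 fold changes of H3K4me3 (left, green) and H3K27me3 (right, purple), resected over uninjured, are drawn for all 26 windows with 95% intervals from the authors' SE, and rows are labelled with the gene and the distance downstream of its first window. Grey ticks mark, for windows with an adjusted p, the size at which H3K4me3 changes began to be called. The intervals that exclude 0 are those of the strong erbb2 promoter for H3K4me3 (-0.68) and of erbb3b for H3K27me3 (0.78). Only the H3K4me3 values were taken as shrunken towards 0, so sizes cannot be compared between the panels.

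No H3K27me3 change passed the test either: 0 of the 26 windows had a DESeq2 adjusted p under 0.05, as was so for the whole table (0% of 41673 windows). At an unadjusted p under 0.05 there was again 1 window of 26, against 3.14% of all windows with a test. It was that of erbb3b, the receptor gene with the highest H3K27me3 of the family, for which the authors' deposited table gives a log2 fold change of 0.78 (SE 0.37, unadjusted p = 0.0323, adjusted p = 1.000). This is 1.72 times the uninjured level with an interval of 1.05 to 2.83. The paralogue erbb3a had 0.05, -0.0011 and 0.02 at its upstream windows, and 0.45, 0.34 and -0.20 further downstream, in the authors' deposited table, and the first 4 of these windows had H3K27me3 levels near that of erbb3b. A difference between the paralogues was not tested.

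The strong erbb2 promoter came next. In the authors' deposited table its H3K27me3 log2 fold change was 0.67 (SE 0.44, unadjusted p = 0.130), and that of the weak window downstream was 0.43 (SE 0.42, unadjusted p = 0.315). The sign at the strong promoter was opposite to that of H3K4me3 there. Each marker stood at its window of highest mean of the mark in question, so its signs for the marks can come from different windows. The cardiomyocyte markers, 14 of 15 below 0 for H3K4me3, had all 15 above 0 for H3K27me3 and a median log2 fold change of 0.42. The endocardial and endothelial markers, 10 of 12 below 0 for H3K4me3, had 9 of 12 above 0 for H3K27me3 and a median of 0.21. Over all genes the median was 0.02, with 52.3% above 0, and no marker passed the H3K27me3 test. Their part in the erbb2 value was not tested.

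For the ligand genes, H3K27me3 values lay between -0.34 and 0.39. In the authors' deposited table nrg1 had 0.01 and -0.04 at the upstream pair of windows, where its H3K27me3 was highest, and 0.39, 0.21 and -0.21 further downstream. The 3 nrg2a windows had -0.27, -0.27 and -0.34, those of nrg2b 0.15 and 0.08, and those of hbegfa 0.02 and 0.04 in the authors' deposited table. The 5 egfra windows had -0.16, -0.21, -0.23, 0.08 and 0.22 there. The SE ran from 0.34 to 0.49 over the 26 windows, so that a 95% interval at the upstream nrg1 window reaches from 0.618 to 1.63 of the uninjured level.

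The remaining genes of the pathway were taken from 6 lists, each gene standing at its window of highest mean. Of 117 entries, 8 matched no gene, and 114 gene IDs were measured. H3K4me3 fell at 2 of the 97 with an adjusted p and rose at none, against 1.4% lower and 1.52% higher over the 15351 genes with an adjusted p. By unadjusted p under 0.05, 11 of 114 were lower and 1 was higher, against 4.61% lower and 4.26% higher over all 24416 genes with a test. The listed genes had a median H3K4me3 mean of 281, against 94.0 over all genes, so the background is unlike in level. The part of level in these shares was not tested. The median log2 fold change was -0.10, against 0.01 over all genes. For H3K27me3 none passed, against 0% of all genes in either direction, and by unadjusted p under 0.05, 2 were lower and none higher, against 1.74% lower and 1.15% higher over 24075 genes. The H3K27me3 median was -0.13, against 0.02 over all genes.

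The 2 genes that fell, of 97, are near the 1.4% called lower over all genes, and both come from lists chosen for ErbB signalling. The larger change was at errfi1a, whose product Mig-6 binds and inhibits EGF receptor family kinases in mammals: its log2 fold change was -0.82 (SE 0.23, adjusted p = 0.0217), from the authors' deposited table, or 0.568 of the uninjured level. The other was grb10a, an adaptor that binds activated receptors (-0.78, SE 0.21, adjusted p = 0.0107, from the authors' deposited table). Their H3K4me3 means were 430 and 554. The paralogues errfi1b and grb10b had 0.26 (adjusted p = 0.871) and 0.51 (adjusted p = 0.340) in the authors' deposited table.

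Feedback inhibitors and turnover genes, which end or damp ErbB and MAP kinase signals, had 1 gene that fell, errfi1a, and 26 that did not pass, of 27 with an adjusted p. Over all genes with an adjusted p, 1.4% were called lower. Of all 29 measured, 20 were below 0 for H3K4me3, against 47.7% of all genes. The median log2 fold change was -0.12, against 0.01 over all genes. After errfi1a the smallest p was that of spry4, a Sprouty inhibitor of receptor tyrosine kinase signalling (-0.55, SE 0.23, adjusted p = 0.256, from the authors' deposited table). For H3K27me3 the smallest p-values were those of rnf41, which encodes a ubiquitin ligase that targets ErbB3 in mammals, and spry2, with log2 fold changes of -0.73 and 0.89 (unadjusted p = 0.0758 and 0.0977 in the authors' deposited table).

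Adaptors and signal relay genes had grb10a as the only gene that fell, and 40 did not pass, of 41 with an adjusted p. The share called lower over all genes was 1.4%. The median over the 44 measured was -0.01 for H3K4me3 and -0.14 for H3K27me3. For H3K27me3 the smallest p-values were those of grb10b and pik3cb, a catalytic subunit of phosphoinositide 3-kinase (-0.91 and -0.98, unadjusted p = 0.0433 and 0.0473 in the authors' deposited table).

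Immediate early and other target genes, which the pathway switches on through MAP kinase, had none past the test of 15 with an adjusted p. The smallest p-values for H3K4me3 were those of fosl1a, an AP-1 subunit (-0.76, SE 0.25, adjusted p = 0.0640, from the authors' deposited table), and etv5b, an ETS factor (-0.67, SE 0.25, adjusted p = 0.153, from the authors' deposited table). For H3K27me3, 18 of the 19 measured lay below 0, with a median of -0.32 and a range of -1.23 to 0.65, against 47.7% of all genes below 0. The smallest p-values there were those of CR855274.1, an ier2 gene by the table of gene names, and junba, another AP-1 subunit (-0.75 and -1.23, unadjusted p = 0.0651 and 0.0672 in the authors' deposited table). The genes are not independent replicates, and marker lists leaned both ways for H3K27me3. Below 0 were 10 of 12 leukocyte markers, with a median of -0.39, and 6 of 7 epicardial markers, with a median of -0.23. Above 0 were 15 of 15 cardiomyocyte, 9 of 12 endocardial and endothelial, 7 of 11 fibroblast and perivascular and 5 of 9 erythroid markers. The part of these cell types in the values of the target genes was not tested.

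Of the other EGF-family ligand genes, 7 were measured, with H3K4me3 means of 30.8 to 92.0. Only 2 of them, btc (92.0) and hbegfb (75.6), had an adjusted p and so could be called, and neither passed. The smallest p-values were those of egf (-0.56, SE 0.30, unadjusted p = 0.0613) and epgn (0.43, unadjusted p = 0.148), in the authors' deposited table. For H3K27me3 they were those of areg, the amphiregulin gene (-0.74, unadjusted p = 0.0785), and tgfa (0.39, unadjusted p = 0.285), in the authors' deposited table. The 3 genes of ErbB4, the other neuregulin-binding receptor, had H3K4me3 means of 36.3 to 43.6 and none had an adjusted p. The smallest p-values were those of erbb4b for H3K4me3 (-0.32, unadjusted p = 0.290) and of another ErbB4 gene for H3K27me3 (0.57, unadjusted p = 0.136), followed by erbb4a with 0.05 and 0.37 in the authors' deposited table.

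The sheddases and proteases that release or mature these ligands had higher H3K4me3, from 65.9 to 675, and none of 12 passed. The smallest p-values were those of adam12 (-0.63, SE 0.23, adjusted p = 0.138) and bace2 (-0.54, SE 0.26, adjusted p = 0.375), by the authors' deposited table. For H3K27me3 they were those of adam10a (-0.99, unadjusted p = 0.0868) and adam10b (0.73, unadjusted p = 0.165), in the authors' deposited table.

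**Figure D4:**
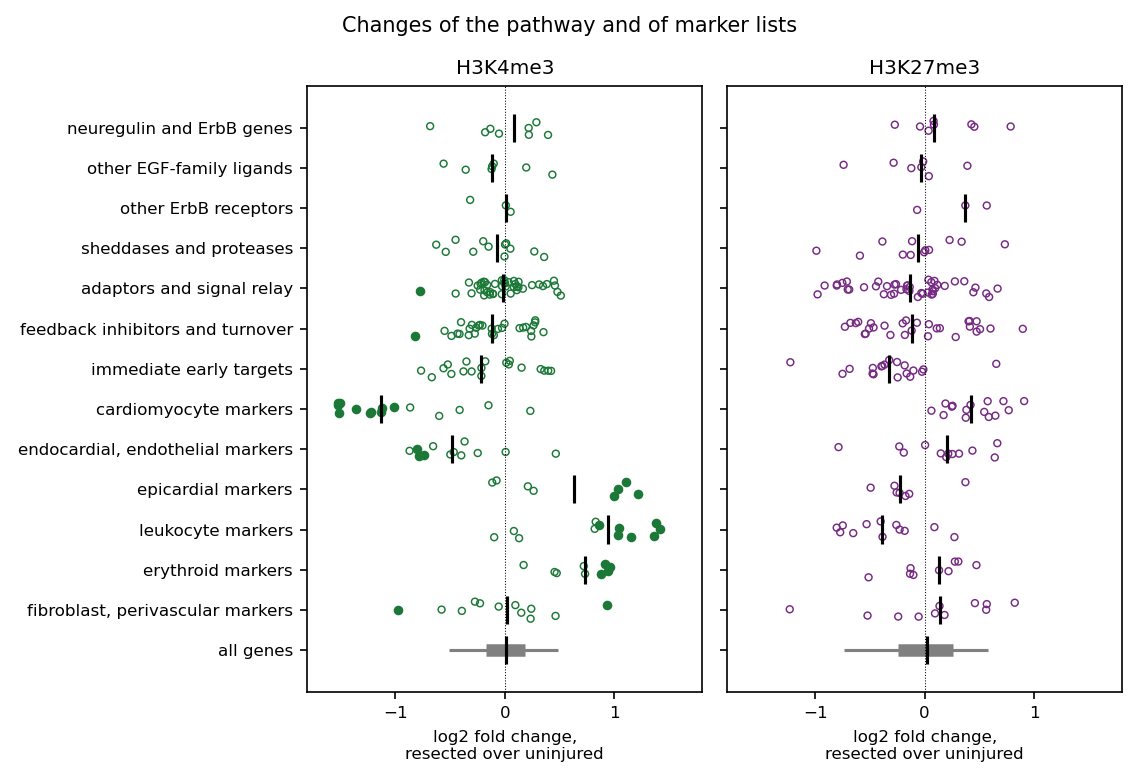
Each circle is 1 gene at its window of highest mean, placed by its log2 fold change, resected over uninjured, of H3K4me3 (left) or H3K27me3 (right). Filled circles have an adjusted p under 0.05, black lines are medians, and the bottom row gives the 5th to 95th percentile, quartiles and median of all genes. Values are as deposited, and only those of H3K4me3 were taken as shrunken towards 0, so sizes cannot be compared between the panels. The 8 neuregulin and ErbB genes have a median of 0.08 for each mark and no filled circle. For H3K4me3, 2 of them had no adjusted p and could not be filled. Their H3K4me3 median lies between those of the cardiomyocyte markers (-1.13) and the leukocyte markers (0.94). The gene erbb2 (-0.68) lies below the 5th percentile of all genes for H3K4me3 (-0.51), and erbb3b (0.78) above the 95th for H3K27me3 (0.58).

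The genes most like nrg1 and erbb2 were sought over 4 values, the log2 mean and the Wald statistic of both marks, at the window of highest H3K4me3. Only named genes were ranked. Symbols with a colon, a final dot and number, orf, or LOC or ENS at the start were left out. The distance is Euclidean after scaling each value to unit SD over 24075 genes. The genes were thus chosen for levels and changes like these, and their fold changes and calls follow from that choice. For erbb2 the nearest were esama (0.161), fgfrl1a (0.351) and kdr (0.371), and their H3K4me3 log2 fold changes were -0.67, -0.77 and -0.80 in the authors' deposited table. Of these kdr, which encodes a VEGF receptor, passed the test, with an adjusted p of 0.0458 in the authors' deposited table. For nrg1 the nearest were sec16b (0.190), havcr1 (0.258) and mchr2 (0.279), with H3K4me3 means of 52.9, 53.6 and 50.1.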

How the data were processed

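Per promoter window, the deposited tables hold the result of the authors' own test of resected against uninjured hearts, under the column names that DESeq2 uses. The signal is the authors' mean normalised count over the libraries compared, per the file headers. The log2 fold change and its SE, the Wald statistic (a score) and the p-value with its adjusted p-value are the authors' too, per the file headers. Per the submitters' processing notes the authors used DESeq2, MACS2, bedtools 2.26.0, Picard 2.8.1, Bowtie2 2.3.2, BWA and SAMtools. The notes list danRer10, GRCz10 and danRer7 as genome builds without saying what each was for. Size factors and read filters are not given in the labels.

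With no counts per library, the authors' test was used in place of an own count test, and a change was called at their adjusted p under 0.05. Window starts were moved by 1 base to count from 1. The H3K4me3 SE has a ceiling of 0.301, as a normal prior of SD 0.603 on the log2 scale gives, so these fold changes were taken as shrunken, and those of H3K27me3 were not. Intervals are the deposited log2 fold change ± 1.96 SE, so those of H3K4me3 are on the shrunken scale.

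Alternatives were no filter on low counts, a mean of 10 or more, adjustment over 1 window a gene, thresholds of 0.1 and 0.01, windows that overlap no other gene, other window choices per gene and the prior undone. An SE under the prior allows 2 values with the shrinkage undone. The value larger in size was taken at windows with a mean below 33.9, and the smaller at the others. Adjustment and prior were tested on simulated data (Python 3.11.15, pandas 2.3.3, scipy 1.17.1). There the right choice between the 2 values was given, so the simulation could not test that choice. Named were all 8 genes and, of the pathway lists, each called gene and the 2 with the smallest p per list and mark, plus the 3 nearest to nrg1 and erbb2. The members and lists were chosen with earlier results of these data known. The genes errfi1b, btc and hbegfb and the neighbours pgap3, purab and rufy1 were named after values were seen. Of 117 pathway entries, 8 matched no symbol in the tables or in a table of gene names. Promoter and protein sequences were not used here.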

Additional observations from a re-analysis of the deposited data

How the results depend on the processing

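No window of the 8 genes was called for either mark under any of the 6 alternatives to the authors' filter, adjustment and threshold. For erbb2 the smallest adjusted p of H3K4me3 ran from 0.0924, without windows that overlap another gene's, to 0.171 with no filter on low counts, so that it would pass a threshold of 0.1 only in the first. Of the pathway lists, grb10a and errfi1a were called in each alternative but the threshold of 0.01, which left 0 genes. Taking each gene's window by the other mark turned the sign of 7 of 16 uncalled values: H3K4me3 of nrg1 (-0.19), nrg2a (0.011), erbb2 (0.43), erbb3a (-0.22) and egfra (-0.29), and H3K27me3 of nrg1 (0.39) and egfra (-0.21). In each of these the window chosen by the other mark lies at another position of the gene. Why the positions differ in sign was not tested. Averages over all windows of a gene, weighted by the mean, moved 2 of 16 values by more than their SE, nrg1 for H3K4me3 to -0.00039 and erbb3a for H3K27me3 to 0.11. By less than the SE, the averages also turned the sign of H3K27me3 for nrg1 (-0.04 to 0.05) and egfra (0.08 to -0.07). Overlapping windows of a gene each entered these averages. Undoing the prior multiplied the H3K4me3 log2 fold changes of the 26 windows by 1.23 to 2.48, with the Wald statistics as before. It gave -0.85 at the strong erbb2 promoter and -1.02, the largest in size, at the nrg1 window 120 kb downstream (-0.41 as deposited). The 2.48, the -1.02 and its rank rest on taking the larger of 2 possible values at that window. No paired analysis was possible because the tables hold no values per library, and for the same reason leaving out each replicate and another normalisation were not run.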
